A study of Caenorhabditis elegans with 27 samples.

Results

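Cuticle collagens are the structural proteins of the worm's exoskeleton, and 84 probe sets of 77 collagen genes were described here across 27 arrays of adult Caenorhabditis elegans kept with or without humic material. A probe set was taken where the array annotation gave it a single gene whose symbol starts with col- or is one of the rol, sqt, dpy, bli, lon-3 and ram-4 collagens named for a body shape or blister phenotype, and where its log2 level was over 5 in at least 3 of the 27 arrays. Of 164 collagen probe sets of 145 genes on the array, 84 met this rule, among 11102 probe sets of all genes that met the same filter out of 22548.

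The cuticle is laid down anew at each moult by the hypodermis, the epidermis under it. Collagen chains are hydroxylated on proline and folded in the endoplasmic reticulum, trimmed by proteases after secretion, and crosslinked through tyrosine. Several members, among them col-19, are known as adult collagens, while dpy-17, dpy-14 and sqt-3 are known for the cuticle of the embryo and larva. Loss of single cuticle collagens is known to give short and fat (dpy) or helically twisted (rol, sqt) worms.

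All worms, controls included, were of strain GE24, pha-1(e2123). This conditional allele lets embryos develop at 15 °C and not at 25 °C, and the worms were raised at 25 °C from first-stage larvae whose parents had already lived with or without humic material at 15 °C. HuminFeed (HF), a commercial humic material, and HuminFeed-Hydroquinone (HF-HQ) were given at 0.2 or 2.0 mM dissolved organic carbon, and each experiment had its own untreated worms. HF was studied in worms 3 days old, called young adults, and in worms 11 days old, called older adults, and HF-HQ in worms 3 days old, which gives 9 groups of 3 arrays. The age entry of the labels reads L4 larvae, whereas the design and protocol speak of adults. The adult markers, 5 probe sets of the yolk protein genes vit-2, vit-5 and vit-6 and of col-19, were over log2 5 in every group. The labels say that conditions were cultivated in triplicate and do not say whether each array stands for a separate culture, so p-values measure the spread between these arrays, which may be technical.

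Levels are deposited log2 values on which a difference of 1 is a 2-fold difference, and each array measured whole worms, so that fewer cells making a transcript and less transcript per cell cannot be told apart. The distribution of values differed between the 3 experiments, as though each had been normalized by itself: the 75th percentile of an array was 9.28 to 9.39 in the HF-HQ experiment, 7.35 to 7.42 in HF at 11 days and 7.45 to 7.53 in HF at 3 days, and the SD over probe sets 3.78 to 3.82, 2.88 to 2.93 and 3.04 to 3.06. Levels between experiments are therefore given without a test, and changes were tested within experiments. The correlation of arrays within a group was 0.987 to 0.999. The median SD of a collagen probe set within a group was 0.0700, against 0.0826 for all tested probe sets.

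In untreated worms of the HF experiments, 17 of the 84 probe sets were over log2 10 at 11 days and 37 at 3 days. Of the 84, 38 were over log2 5 in all 27 arrays and 3 (col-120, col-183 and 1 of the 2 of col-97) were over it in exactly 3 arrays, which for each were those of 1 group. Those 3 passed only through the group in which they are high. Below the filter were 80 probe sets, of which 75 were over log2 5 in no array and 5 in 1 or 2 arrays, the last of them col-104, col-156, col-2, dpy-3 and a second set of dpy-2, with highest values of 5.12, 5.06, 5.01, 5.36 and 5.04. Just inside the filter the highest values of col-183, col-97 and col-120 were 5.31, 5.57 and 5.59. The annular furrow collagens dpy-3, dpy-7, dpy-8 and dpy-9 stayed below it, as did sqt-1, lon-3 and the strut collagens bli-1 and bli-2, which form the columns between the layers of the adult cuticle. None of them is described further, and dpy-10 and ram-4 were not analysed here.

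Untreated worms 11 days old had lower collagen levels than untreated worms 3 days old, with a median difference of -2.41 over the 84 probe sets and of -0.24 over all tested ones. After quantile normalization of all arrays these medians were -2.39 and 0.04. The difference was at least 1 log2 unit down on both scales in 67 collagen probe sets and at least 1 up in 9, against 13.9% and 9.82% of all tested probe sets. Among the 67 were 8 that passed the filter only through arrays of HF at 3 days, and among the 9 were 3 that passed only through those at 11 days. The direction of these is part of how they were chosen. The adult collagen col-19 stood at 7.98, 8.0 and 7.98 at 11 days and at 12.45, 12.43 and 12.53 at 3 days. The largest difference was that of col-139, with 4.33, 4.25 and 4.32 at 11 days and 11.65, 11.65 and 11.60 at 3 days, followed by col-129 and col-81. In these the 11-day arrays lay below log2 5, the level of the filter, where the size of a difference is less certain. Each age was an experiment of its own, so age and experiment cannot be told apart in these levels.

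Some collagens ran the other way. The embryonic collagen dpy-14 stood at 8.26, 8.30 and 8.44 in untreated worms of 11 days and at 3.04, 2.99 and 2.98 in those of 3 days, and dpy-17 at 8.70, 8.46 and 8.74 against 4.63, 4.57 and 4.67. In both genes every 11-day array lay above every 3-day array by several log2 units. In the untreated 3-day worms of the HF-HQ experiment dpy-14 stood higher still, at 10.21, 10.38 and 10.48, and dpy-17 at 11.11, 11.10 and 11.33, so that the 2 experiments on 3-day worms differed in these genes although both groups were untreated and of the same stated age. The differences of 7.36 for dpy-14 and 6.56 for dpy-17 between these controls remained at 6.05 and 4.96 after quantile normalization. The collagen median between these controls was 0.54 as deposited, beside 1.65 over all tested probe sets. After quantile normalization it was -0.75, beside 0.05. Its sign thus depended on the scale, while it lay below the median of all tested probe sets on both scales. The summed level of the embryo markers (10 probe sets of end-1, end-3, med-1, hlh-1, pal-1, tbx-37, tbx-38 and elt-7, of which 3 to 6 were over log2 5 in a group) was 13.5 to 13.7 in the untreated HF-HQ arrays, 12.03 to 12.10 in the untreated 11-day arrays and 12.5 to 12.6 in the untreated HF 3-day arrays. These sums are on the deposited scale, where all tested probe sets differed by a median of 1.65 between the untreated 3-day groups. They do not compare amounts of embryo transcript between experiments, and their part in these collagen levels was not tested.

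**Figure D1:**
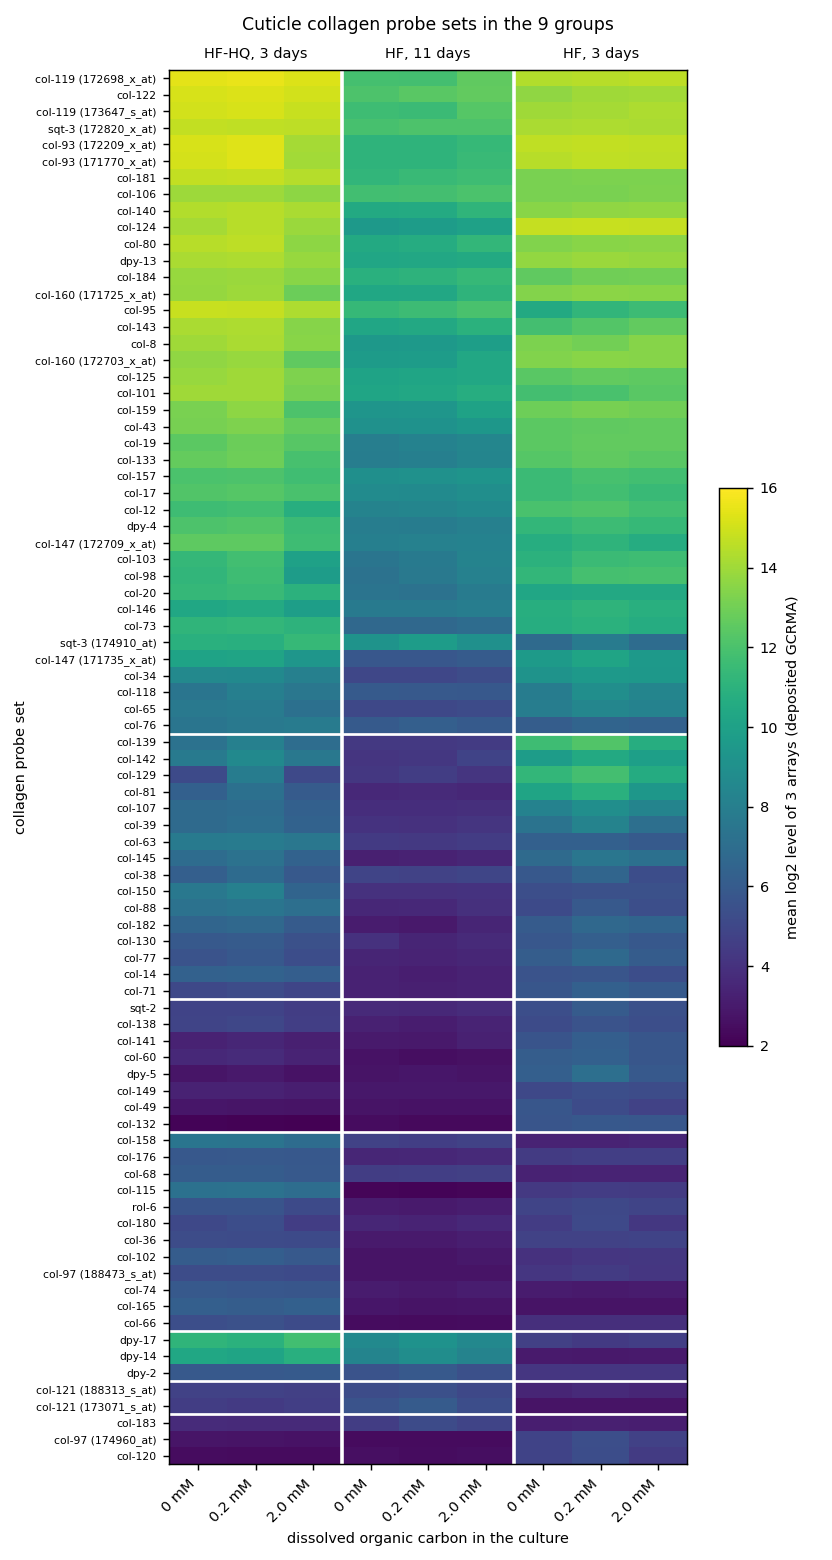
Mean log2 level of 3 arrays for each of the 84 collagen probe sets (rows) in the 9 groups (columns, by dissolved organic carbon in mM within each experiment); white lines part the rows by whether the untreated groups were over log2 5. The 40 rows at the top were over log2 5 in all 3 untreated groups, dimmer at 11 days, and dpy-17 and dpy-14 near the bottom are bright with HF-HQ and at 11 days and dark in HF at 3 days.

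At 3 days, 0.2 mM HF went with higher collagen levels. Of the 84 probe sets 49 rose, 2 fell and 33 did not pass at an adjusted p under 0.05 in limma, against 26% of all tested probe sets that rose and 32.9% that fell. The median log2 change was 0.19, against -0.03 over all tested probe sets, and 75 of the 84 changes were above 0. The 3 treated arrays lay above all 3 untreated arrays in 58 probe sets, where 29.8% of all tested probe sets did so. Changes were small, 2 of them reaching 2-fold. Among the 49 were col-120 and 1 probe set of col-97, which passed the filter only through the arrays of this treated group and so had to stand high in it.

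The collagen col-118 had 8.91, 8.80 and 8.99 with 0.2 mM HF, against 8.0, 7.84 and 7.82 in untreated worms, a change of 1.01 ± 0.11 (SE, limma adjusted p = 6.26e-08). The dimmer of 2 probe sets of sqt-3, a collagen whose mutants are short or rolling, had 7.91, 7.79 and 7.78 with HF and 6.86, 6.74 and 6.88 without (1.0 ± 0.10, limma adjusted p = 5.57e-08). The collagen dpy-5, needed for normal body length, had 6.96, 7.22 and 7.20 with HF and 6.22, 6.19 and 6.25 without (0.91 ± 0.08, limma adjusted p = 4.14e-09). In each of these genes no treated array overlapped an untreated one. Next came col-39 with 0.92, col-142 with 0.74, col-81 with 0.74, and sqt-2 with 0.65. The 2 probe sets that fell were col-49, with 5.18, 5.20 and 5.17 against 5.71, 5.73 and 5.77 (-0.56 ± 0.05, limma adjusted p = 1.66e-08), and col-8 with -0.20.

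At 2.0 mM HF the collagens of 3-day worms divided. Here 19 rose, 11 fell and 54 did not pass, shares below the 28% and 32.9% of all tested probe sets that rose and fell, and the median change was 0.08, against -0.02 over all tested. The largest rise was that of col-95, with 11.61, 11.53 and 11.72 at 2.0 mM, against 10.48, 10.42 and 10.57 in untreated worms (1.13 ± 0.06, limma adjusted p = 2.05e-12). The collagens col-143, col-98, col-103 and col-101 rose by 0.77, 0.64, 0.62 and 0.61. All 5 were at log2 10 or more in untreated worms, and in all 5 the treated and untreated arrays did not overlap.

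Of the 11 collagens that fell at this dose, 10 stood below log2 5 in untreated worms of 11 days, and col-12, at -0.22, was the exception, named after its value was seen. Of all 84 probe sets 45 were over log2 5 in those worms, and the share of all tested probe sets was not counted. The level of col-139 was 10.60, 10.72 and 10.88 at 2.0 mM, against 11.65, 11.65 and 11.60 in untreated worms (-0.90 ± 0.08, limma adjusted p = 2.41e-09). For col-129 the values were 10.63, 10.61 and 10.63, against 11.29, 11.27 and 11.31 (-0.67 ± 0.09, limma adjusted p = 1.21e-06), and col-81 changed by -0.78. Together with col-38, these genes had risen at 0.2 mM in the same experiment, by 0.58 for col-139, 0.52 for col-129, 0.74 for col-81 and 0.71 for col-38, against the same untreated arrays. Of the others that fell, dpy-5 fell by 0.30, and col-49 had 4.62, 4.92 and 4.80 against 5.71, 5.73 and 5.77 (-0.96 ± 0.05). The probe set of col-49 passed the filter only through the untreated and 0.2 mM arrays of this experiment, so its fall is given as a description. The call on col-60, at -0.41, was lost in 4 of 13 alternatives, which changed the filter, the scaling, the fit or the arrays included, and 2 of which left out 1 array.

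Set directly against 0.2 mM, the 2.0 mM worms were lower in 28 collagen probe sets and higher in 5, against 7.65% and 13.4% of all tested, with a median of -0.12 beside 0.04. The level of col-81 in 3-day worms was 10.17, 10.17 and 10.18 without HF, 10.86, 10.88 and 11.00 at 0.2 mM and 9.29, 9.51 and 9.39 at 2.0 mM, so that the 3 dose groups did not overlap and the lower dose was highest. Between the doses col-81 changed by -1.52 ± 0.08, col-139 by -1.48, col-38 by -1.26 and dpy-5 by -1.21. In the other direction col-8 changed by 0.45, col-101 by 0.44, col-95 by 0.42 and col-143 by 0.35.

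Markers of other tissues moved in the same arrays. The sperm list (4 probe sets of msp-3, gsp-3, gsp-4 and spe-9, of which 3 were over log2 5 in the HF 3-day groups) summed to 11.18 to 11.29 without HF, 11.81 to 11.96 at 0.2 mM and 9.78 to 9.94 at 2.0 mM, the same order of doses as in col-81, col-139, col-129 and col-38. All 3 tested sperm probe sets rose at the lower dose and fell at the higher one, beside 26% of all tested that rose at 0.2 mM and 32.9% that fell at 2.0 mM. The body wall muscle list of 6 probe sets summed to 11.4, 12.1 to 12.2 and 12.3 to 12.4 at 0, 0.2 and 2.0 mM, and the intestine list of 5 to 12 to 12.2, 12.7 to 12.8 and 12.6 to 12.8. The hypodermis list of 10, which holds the collagens rol-6 and dpy-7, summed to 10.2, 9.91 to 9.97 and 9.83 to 10.0. The difference between the 5′ and 3′ probe sets of a control transcript, which tells of RNA integrity and labelling, was -1.62 ± 0.12, -1.40 ± 0.09 and -1.25 ± 0.09 for actin without HF, at 0.2 mM and at 2.0 mM, and -2.95 ± 0.03, -3.10 ± 0.04 and -3.04 ± 0.05 for ubiquitin (SD, n = 3). The part of these tissues and of RNA quality in the collagen changes was not tested.

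In worms 11 days old, 0.2 mM HF changed few genes of any kind, and 9 collagen probe sets rose and 0 fell (3.22% and 0.784% of all tested), with a median of 0.04 beside 0.02. Of the 84, 75 did not pass. Of the 9, 3 were the embryonic and larval collagens that stood high at this age. The level of dpy-17 was 9.19, 9.10 and 9.11 with HF, against 8.70, 8.46 and 8.74 without (0.49 ± 0.10, limma adjusted p = 0.00327), that of dpy-14 was 8.89, 8.83 and 8.92 against 8.26, 8.30 and 8.44 (0.54 ± 0.13, limma adjusted p = 0.0163), and that of the dimmer sqt-3 probe set was 9.73, 9.66 and 9.78 against 9.00, 9.28 and 9.30 (0.53 ± 0.10, limma adjusted p = 0.00307). In all 3 genes every treated array lay above every untreated one. The probe set of col-183 passed the filter only through the arrays of this treated group, so its rise is part of how it was chosen and is given as a description, with 5.15, 5.31 and 5.09 against 4.64, 4.35 and 4.57 (0.66). Without it 8 collagen probe sets rose. The remaining 5 were col-98 (0.37), col-103 (0.34), and, named after their values were seen, col-122 (0.31), col-181 (0.27) and col-95 (0.24). The calls on col-98, col-103 and dpy-14 were lost in 9, 7 and 4 of 14 alternatives each, in part when 1 array was left out. Without array 2 of the untreated worms, or array 1 or 3 of the treated ones, 5 collagen calls were made.

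At 2.0 mM HF the collagens of 11-day worms rose: 34 probe sets of 31 genes were higher, 0 were lower and 50 did not pass, where 13.4% of all tested probe sets rose and 14.8% fell. The median was 0.16 beside -0.01 over all tested, and in 39 probe sets all treated arrays lay above all untreated ones, beside 19.4% of all tested. The rises lay mostly in the collagens that were over log2 5 in every untreated group. Of the 40 probe sets over log2 5 in all 3 untreated groups 32 rose, and of the 44 others 2 rose. Most of the 44 stood below log2 5 in untreated 11-day worms, where a small change does not show that a gene failed to respond. The exceptions, dpy-14, dpy-17, dpy-2 and both probe sets of col-121, were over it and not called. The share of all tested probe sets at like levels was not counted.

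The leading genes were col-98, with 8.0, 8.11 and 8.36 at 2.0 mM, against 7.04, 7.38 and 7.45 in untreated 11-day worms (0.87 ± 0.10, limma adjusted p = 2.35e-06), and col-103, with 8.29, 8.19 and 8.30 against 7.49, 7.35 and 7.46 (0.83 ± 0.09, limma adjusted p = 6.24e-07). For col-119 the values were 12.57, 12.66 and 12.57 against 11.95, 11.70 and 11.92 in one probe set (0.74 ± 0.06) and 12.29, 12.30 and 12.27 against 11.76, 11.54 and 11.66 in the other (0.64 ± 0.05). The 2 probe sets of col-160, with 0.76 and 0.69, and that of its neighbour on chromosome V, col-159, with 0.76, rose alike, and probes of such similar genes can share signal. The adult collagen col-19 had 8.57, 8.31 and 8.44 at 2.0 mM, against 7.98, 8.0 and 7.98 in untreated worms (0.46 ± 0.07, limma adjusted p = 9.8e-05). In these worms dpy-17, dpy-14 and the dimmer probe set of sqt-3 were not called, with changes of -0.09, -0.08 and -0.15.

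Between the doses at 11 days the direction was opposite in these groups of genes. Of the 84 probe sets 28 were higher at 2.0 than at 0.2 mM and 8 lower, beside 12.2% and 18.3% of all tested. The higher ones were led by col-119 (0.76 and 0.72), col-159 (0.71) and col-160 (0.69 and 0.64). The lower ones were both probe sets of col-121 (-0.74 and -0.36), the dimmer sqt-3 probe set (-0.67), dpy-14 (-0.62), dpy-17 (-0.58), the furrow collagen dpy-2 (-0.50), col-129 (-0.36) and col-183 (-0.32). Beside these values, the embryo markers summed to 12.03 to 12.10, 11.93 to 11.97 and 11.70 to 11.88 at 0, 0.2 and 2.0 mM. Against untreated worms, 4 of the 6 tested embryo probe sets fell at 2.0 mM, beside 14.8% of all tested. The sperm sums were 5.78 to 5.97, 6.33 to 6.51 and 6.43 to 6.91, those of body wall muscle 9.63 to 9.79, 9.91 to 9.96 and 10.0 to 10.2 and those of the intestine 9.74 to 9.86, 9.91 to 9.98 and 9.59 to 9.62. Their part in the collagen changes was not tested.

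**Figure D2:**
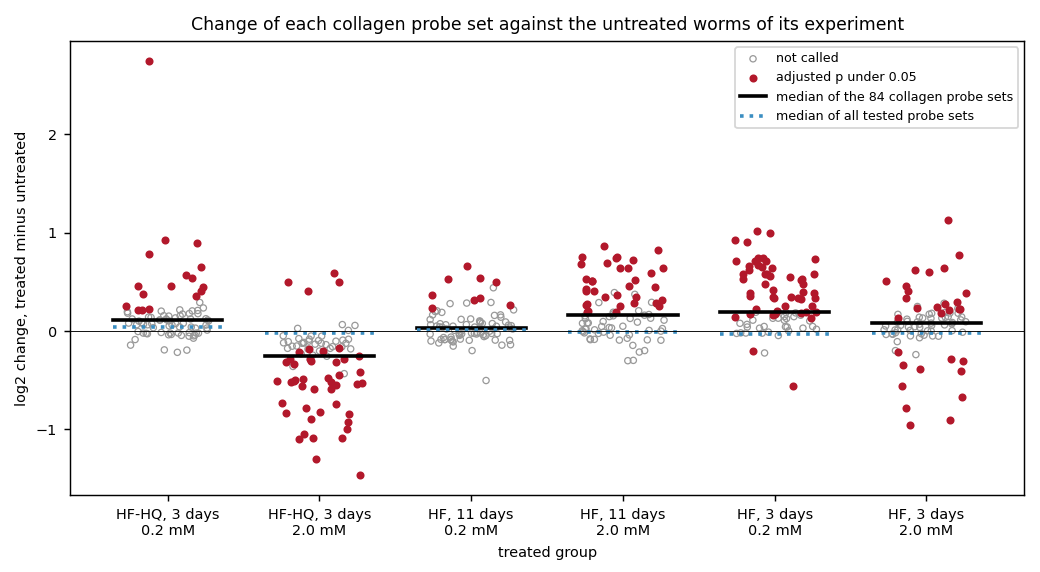
Log2 change of each of the 84 collagen probe sets (points, filled where the adjusted p was under 0.05) in the 6 treated groups against the untreated worms of the same experiment; lines give the median of the collagens (solid) and of all tested probe sets (dotted). The collagen median is -0.25 with 2.0 mM HF-HQ and between 0.04 and 0.19 in the other 5 treated groups.

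The changes with HF at 11 and at 3 days were compared directly. Each age was studied in its own experiment with its own controls, so age and experiment cannot be told apart in these differences. At 0.2 mM the difference passed for 38 collagen probe sets, 6 higher (7.14%) and 32 lower (38.1%) at 11 days, where 26.1% and 16.6% of all tested probe sets were higher and lower, 42.7% together. The total was thus near that of all tested, with a larger share on the lower side. At 2.0 mM it passed for 28, with 24 higher (28.6%) and 4 lower (4.76%), beside 32.7% and 29.3%, 62% together, so that fewer collagens passed than the share of all tested. The medians were -0.20 and 0.15, beside 0.07 and 0.02 over all tested. For col-39 the change with 0.2 mM was -0.08 at 11 days and 0.92 at 3 days (difference -1.01 ± 0.21, limma adjusted p = 0.000736), and for dpy-5 it was 0.10 and 0.91 (difference -0.81 ± 0.11). For dpy-17 the change was 0.49 at 11 days and -0.22 at 3 days (difference 0.72 ± 0.14, limma adjusted p = 0.000321). At 2.0 mM, col-159 changed by 0.76 at 11 days and 0.07 at 3 days (difference 0.69 ± 0.12, limma adjusted p = 5.75e-05).

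Some of these genes were near the floor at one age. Untreated worms averaged 4.07 for col-39 and 2.74 for dpy-5 at 11 days, and 4.63 for dpy-17 at 3 days, all below log2 5. A small change at such levels does not show that a gene failed to respond. Among members over log2 5 in at least 3 arrays of both experiments, 12 passed at 0.2 mM and 17 at 2.0 mM. The largest values at 2.0 mM, col-139 with 1.03 ± 0.11 and col-49 with 0.94 ± 0.08, were of this kind, since these genes stood below log2 5 at 11 days. As col-49 passed the filter only through untreated and 0.2 mM arrays of HF at 3 days, its value is given as a description. The collagen col-95 was over log2 10 at both ages, and its changes at 2.0 mM were 0.59 at 11 days and 1.13 at 3 days (difference -0.54 ± 0.09, limma adjusted p = 1.97e-05).

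With 0.2 mM HF-HQ, 17 of the 84 collagen probe sets of 3-day worms rose (20.2%), 0 fell and 67 did not pass, beside 15.9% of all tested that rose and 14.3% that fell. The share that rose was near that of all tested probe sets, and the following values are those of single genes. The median of 0.11 lay beside 0.05 over all tested. The rise of col-129 was the largest among the 84 probe sets over the 6 treated groups, with 7.75, 7.98 and 7.99 at 0.2 mM, against 5.26, 5.19 and 5.05 in untreated worms, 6.69-fold (2.74 ± 0.09, limma adjusted p = 1.74e-15). The collagens col-142, col-81, col-139 and col-38 followed with 0.92, 0.89, 0.79 and 0.65. For col-139 the values were 8.04, 8.03 and 8.21 against 7.31, 7.30 and 7.30 (limma adjusted p = 4.05e-07), without overlap. The adult collagen col-19 had 12.88, 13.04 and 12.66 at 0.2 mM, against 12.45, 12.46 and 12.44 (0.41 ± 0.07, limma adjusted p = 0.000285), a call lost with the arrays of this comparison alone.

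In the same arrays the sperm list summed to 7.17 to 7.47, 8.20 to 8.61 and 7.02 to 7.43 at 0, 0.2 and 2.0 mM HF-HQ, with 1 of its 4 probe sets over log2 5, and its part in the rise of these collagens was not tested. The difference of the 5′ and 3′ probe sets of ubiquitin was -2.08 ± 0.05, -2.44 ± 0.17 and -2.15 ± 0.09 (SD, n = 3) in these groups, and was not tested against the collagens either. With only the 6 arrays of this comparison in the fit, 5 collagen probe sets were called in place of 17.

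With 2.0 mM HF-HQ the collagens fell. Of the 84 probe sets 42 were lower, 4 were higher and 38 did not pass, against 10.3% and 13.2% of all tested probe sets that fell and rose. The median log2 change was -0.25, beside -0.02 over all tested, and 8 of 84 changes were above 0. Of the 40 probe sets over log2 5 in all 3 untreated groups 31 fell and 2 rose, with a median of -0.49.

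The deepest falls were those of col-98 and col-103. The level of col-98 was 9.90, 9.69 and 9.62 at 2.0 mM HF-HQ, against 11.19, 11.07 and 11.34 in untreated worms, so that it fell by 1.46 on the log2 scale, to 2.75-fold lower (SE 0.10, limma adjusted p = 1.65e-10). That of col-103 was 10.24, 10.02 and 9.85 against 11.37, 11.24 and 11.41 (-1.30 ± 0.09, limma adjusted p = 7.75e-11). In both genes all treated arrays lay below all untreated ones. Then followed col-160 (-1.1 and -0.93 in its 2 probe sets), col-159 (-1.09), col-150 (-1.08) and col-93 (-1.05 and -1.0). For col-150 the values were 6.75, 6.38 and 6.36 against 7.55, 7.54 and 7.66 (limma adjusted p = 8.38e-10). Members named for a body shape fell too, dpy-4 by 0.59 ± 0.09, rol-6 by 0.49 ± 0.12 and dpy-13 by 0.34 ± 0.05. The arrays of rol-6, 4.82, 5.57 and 5.11 against 5.65, 5.63 and 5.69, varied more with HF-HQ than without and lay near log2 5.

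The 4 that rose were dpy-17, dpy-14, the dimmer sqt-3 probe set and col-76. The level of dpy-17 was 11.90, 11.88 and 11.52 at 2.0 mM HF-HQ, against 11.11, 11.10 and 11.33 (0.59 ± 0.10, limma adjusted p = 7.87e-05). For dpy-14 it was 11.10, 10.90 and 10.57 against 10.21, 10.38 and 10.48 (0.50 ± 0.13, limma adjusted p = 0.00615), and for the dimmer sqt-3 probe set 11.67, 11.36 and 11.18 against 10.94, 10.92 and 10.84 (0.50 ± 0.10, limma adjusted p = 0.000855). In all 3 genes array 1 or arrays 1 and 2 of the treated worms were highest and no treated array reached down to an untreated one. The call on dpy-14 was lost without array 1 of the treated worms, at 0.38, and with the 6 arrays of this comparison alone. For col-76, at 0.41 ± 0.13, it was lost in 6 of 14 alternatives.

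Between the doses of HF-HQ the contrast was wider: 56 probe sets were lower at 2.0 mM than at 0.2 mM, 3 were higher and 25 did not pass, beside 15.7% and 17.5% of all tested, with a median of -0.42 beside -0.03. The level of col-129 at 2.0 mM, 4.98, 5.19 and 5.18, was back among that of untreated worms (-2.79 ± 0.09 against 0.2 mM, limma adjusted p = 2.2e-16). The 3 higher ones were dpy-17 with 0.80, dpy-14 with 0.69 and the dimmer sqt-3 probe set with 0.59. The adult collagen col-19 was lower by -0.51 ± 0.07 at 2.0 than at 0.2 mM, while at -0.10 it was not called against untreated worms. At 0, 0.2 and 2.0 mM HF-HQ the hypodermis list summed to 12.3 to 12.4, 11.9 to 12.4 and 12.4 to 12.5, the intestine list to 12.3 to 12.4, 12.6 to 12.8 and 13.1 to 13.2 and the embryo list to 13.5 to 13.7, 13.5 to 13.8 and 13.6 to 13.7. Of the hypodermis list elt-3 (1 of 2 probe sets) and tsp-15 rose and rol-6, itself a collagen, fell at 2.0 mM, beside 13.2% of all tested that rose and 10.3% that fell. The difference of the 5′ and 3′ probe sets of catalase was -2.14 ± 0.22, -2.42 ± 0.51 and -1.6 ± 0.14 (SD, n = 3) at 0, 0.2 and 2.0 mM. The part of these measures in the collagen changes was not tested.

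**Figure D3:**
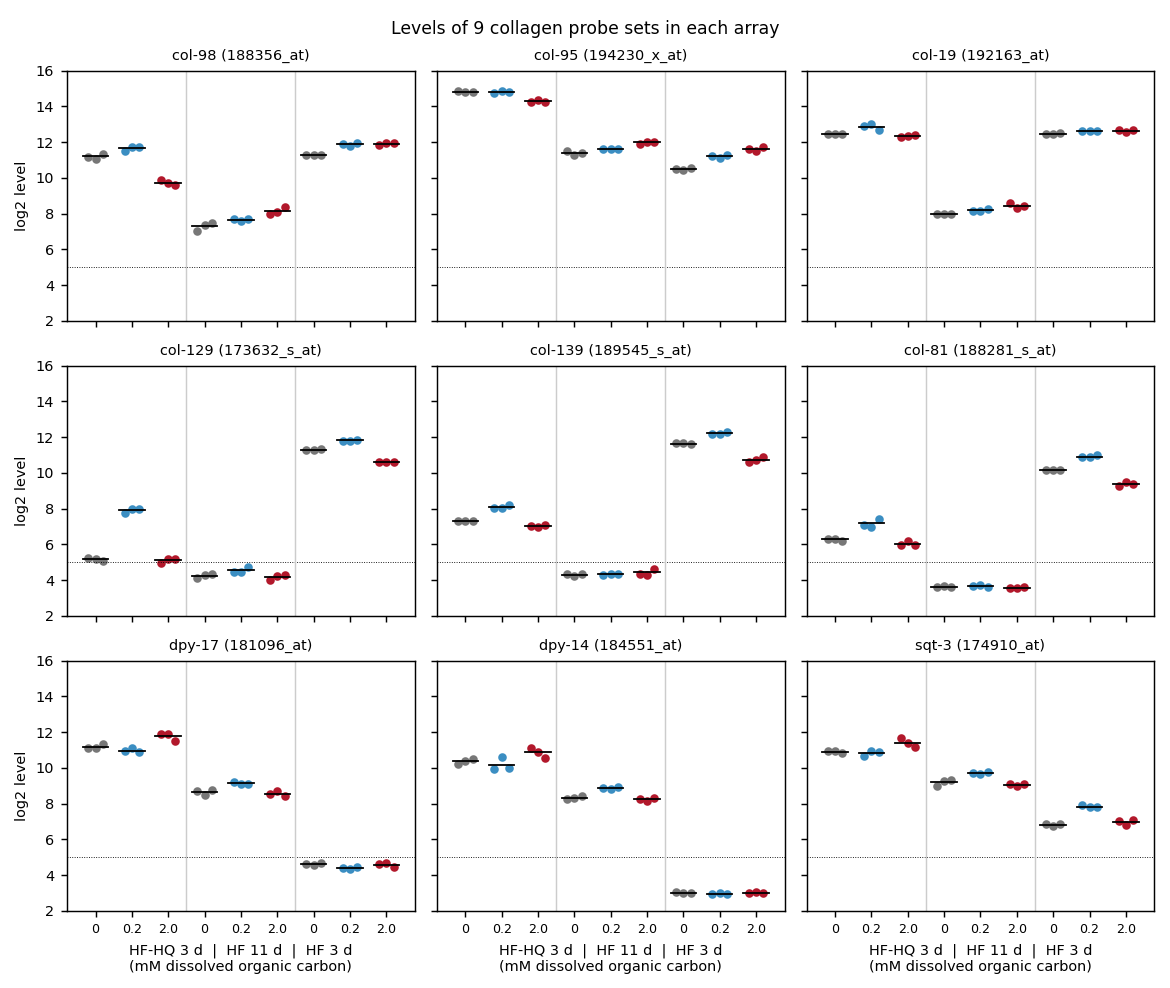
Log2 level of 9 collagen probe sets in each of the 27 arrays (points; grey 0, blue 0.2 and red 2.0 mM dissolved organic carbon; bars give group means; the dotted line is log2 5, and light lines part the experiments HF-HQ at 3 days, HF at 11 days and HF at 3 days). The col-98 points at 2.0 mM lie at 9.62 to 9.90 with HF-HQ and at 11.83 to 11.97 with HF at 3 days, below and above the untreated arrays of their experiments.

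The 2 preparations were compared at matched doses through the difference of their changes in 3-day worms, 4 such differences being tested in all with those of age. At 0.2 mM the difference between HF-HQ and HF passed for 26 collagen probe sets, 5 higher (5.95%) and 21 lower (25.0%) with HF-HQ, where 24.4% and 15.8% of all tested passed, 40.2% together, more than the share of the collagens. The median was -0.10 beside 0.04. At 2.0 mM it passed for 50, 7 higher (8.33%) and 43 lower (51.2%), where 27.6% and 20.6% of all tested passed, 48.2% together, and the median was -0.35 beside 0.05.

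At 2.0 mM, 14 collagen probe sets fell with HF-HQ and rose with HF, 2 fell with both and 0 rose with both. A further 26 fell with HF-HQ and were not called with HF. Of all tested probe sets 10.3% fell with HF-HQ and 28% rose with HF at this dose. Pairs of calls were not counted over all tested, so their share there is not known. The change of col-98 was -1.46 with HF-HQ and 0.64 with HF (difference -2.10 ± 0.14, limma adjusted p = 1.55e-10), and that of col-103 -1.30 and 0.62 (difference -1.92 ± 0.12, limma adjusted p = 5.95e-11). For col-95 the change was -0.53 with HF-HQ, with arrays at 14.26, 14.35 and 14.25 against 14.84, 14.79 and 14.82, and 1.13 with HF (difference -1.66 ± 0.09, limma adjusted p = 2.04e-12). For col-143 it was -0.75 and 0.77 (difference -1.52 ± 0.09, limma adjusted p = 1.45e-11). These 4 genes thus moved in opposite directions with the preparations, each past the test. With dpy-17 the sign was the other way, 0.59 with HF-HQ and -0.05 with HF (difference 0.64 ± 0.14, limma adjusted p = 0.000655), though this gene stood below log2 5 in the HF arrays.

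At 0.2 mM the widest difference was that of col-129, with changes of 2.74 for HF-HQ and 0.52 for HF (difference 2.22 ± 0.13, limma adjusted p = 5.03e-11). Its untreated level differed between the experiments, 5.16 ± 0.11 in the HF-HQ experiment and 11.29 ± 0.02 in the HF experiment (SD, n = 3), so that the starting points were far apart. On the lower side, the dimmer sqt-3 probe set changed by -0.09 with HF-HQ and 1.0 with HF (difference -1.09 ± 0.15, limma adjusted p = 6.04e-06), and dpy-5, at the floor in the HF-HQ arrays, by 0.20 and 0.91 (difference -0.71 ± 0.11). Since each preparation was given in its own experiment with its own controls and normalization, preparation and experiment cannot be told apart in these differences.

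**Figure D4:**
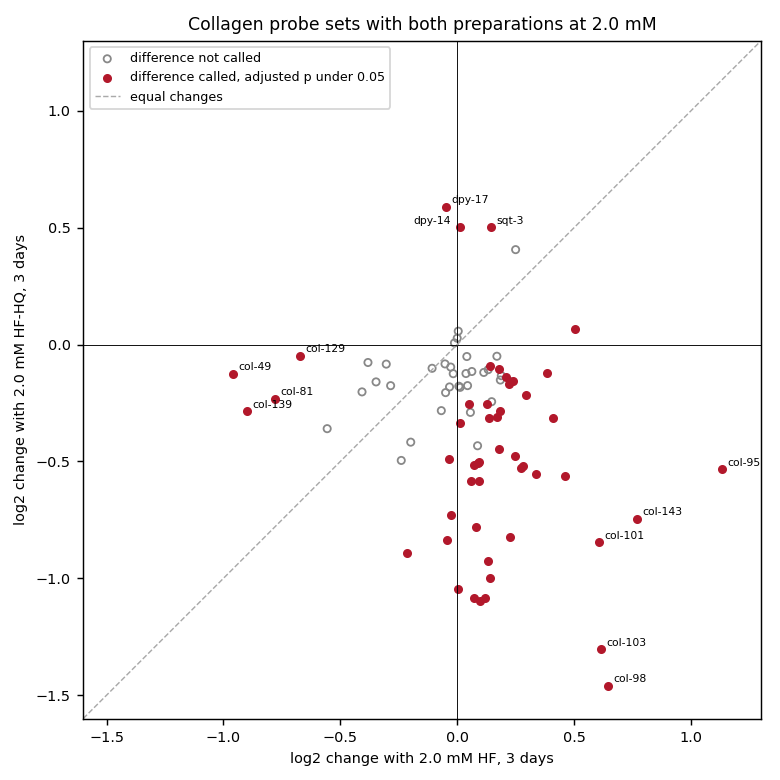
Log2 change with 2.0 mM HF-HQ (vertical) against that with 2.0 mM HF (horizontal) in 3-day worms, for the 84 collagen probe sets, each against the untreated worms of its experiment; filled points passed the test of the difference, and the dashed line marks equal changes. Of the points, 50 are filled, 43 of them below the line; col-98 and col-103 lie at 0.64 and 0.62 to the right and -1.46 and -1.30 down.

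The members named for a phenotype did not all move in one direction. The body shape collagens outside the furrow (9 tested probe sets of 8 genes) had 5 that rose and 0 that fell with 0.2 mM HF at 3 days, 0 and 1 at 2.0 mM, 3 and 0 with 0.2 mM at 11 days, 1 and 0 at 2.0 mM, 0 and 0 with 0.2 mM HF-HQ and 3 and 3 at 2.0 mM. The shares of all tested that rose and fell were, in this order, 26% and 32.9%, 28% and 32.9%, 3.22% and 0.784%, 13.4% and 14.8%, 15.9% and 14.3%, and 13.2% and 10.3%. With 2.0 mM HF-HQ dpy-17, dpy-14 and the dimmer sqt-3 probe set rose while dpy-4, dpy-13 and rol-6 fell. The annular furrow collagen dpy-2, the tested one of its kind, was not called in any of the 6 treated groups and lay between 4.18 and 6.0. For col-19, the changes with HF at 3 days were 0.17 at 0.2 mM and 0.18 at 2.0 mM (limma adjusted p = 0.0474 and 0.0399), and these calls were lost in 9 and 8 of 14 alternatives.

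In the list 7 genes had 2 probe sets each, and for sqt-3 these did not run together. The brighter one stood at 14.25 ± 0.09 in untreated HF worms of 3 days, was called in none of the 13 comparisons, and never left the range 11.65 to 14.75, while the dimmer one stood at 6.83 ± 0.08 in the same worms and was called in 3 of the 6 treatments. Which of them follows the transcript was not tested. An ending of _x_at marks a set whose probes can match further genes, and 27 of the 84 had it. Without them 24 collagen probe sets were called with 2.0 mM HF-HQ and 16 with 2.0 mM HF at 11 days, of 57 counted. Of the 77 genes 75 had a place in the RefSeq annotation, 22 of them on chromosome IV, 17 on V and 16 on II, and 8 pairs lay next to each other, such as col-159 and col-160, and dpy-13 and col-34. The genes col-182 and col-66 are pseudogenes there.

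Genes whose products fold, secrete, cut and crosslink collagen were followed beside the collagens. Apart from the 3 genes of each list with the largest called change, those named here were chosen after their values were seen. The shares of all tested probe sets to read these counts against were, for rises and falls, 26% and 32.9% with 0.2 mM HF at 3 days, 28% and 32.9% with 2.0 mM HF at 3 days, 3.22% and 0.784% with 0.2 mM at 11 days, 13.4% and 14.8% with 2.0 mM at 11 days, 15.9% and 14.3% with 0.2 mM HF-HQ and 13.2% and 10.3% with 2.0 mM HF-HQ. Of 21 tested probe sets for processing and crosslinking 1 rose and 12 fell with 0.2 mM HF at 3 days and 5 rose and 10 fell at 2.0 mM, and 8 of the 21 belong to bli-4. The protease gene bli-4, which cleaves procollagen and other precursors, had changes of -0.98 to -0.31 over its 8 probe sets at 0.2 mM, all called. It fell with 0.2 mM HF-HQ as well, by 0.22 to 0.69 in 7 of them, and was not called at 11 days. The gene dpy-11, for a thioredoxin-like protein of the hypodermis, fell by 0.51 and 0.42 in its probe sets with 0.2 mM HF at 3 days. Of 28 probe sets of the secretory pathway 3 rose and 11 fell there, the falls near the 32.9% of all tested, and 10 rose and 0 fell with 2.0 mM HF at 11 days. The gene tmem-131, which acts in collagen secretion, ran from -0.73 to -0.56 in its 3 probe sets at 3 days with 0.2 mM and from 0.32 to 0.42 at 11 days with 2.0 mM. With 0.2 mM HF-HQ hsp-3, an endoplasmic reticulum chaperone gene, fell by 0.92 and ero-1, for an oxidase of the same compartment, by 0.81 in one probe set. Among 19 probe sets of prolyl hydroxylases, isomerases and disulfide isomerases, fkb-3 rose by 0.45 and 0.75 with 0.2 and 2.0 mM HF at 3 days, 6 rose and 1 fell at the lower dose, and 1 rose and 1 fell with 2.0 mM HF-HQ.

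Other cuticle proteins were called in each treated group of 3-day or 11-day worms except with 2.0 mM HF at 3 days. Of 12 tested probe sets 6 rose and 0 fell with 0.2 mM HF at 11 days, beside 3.22% and 0.784% of all tested, those of noah-1 (0.53 in 1 of 2), noah-2 (0.58), let-653 (0.57), lpr-3 (0.47 and 0.46) and cutl-20 (0.28), which were named after their values were seen. With 0.2 mM HF-HQ 0 rose and 4 fell, among them 1 of the 2 of noah-1 by 1.02 and sym-1 by 0.97. With 2.0 mM HF-HQ 3 rose and 0 fell, sym-1 by 0.68 and the 2 probe sets of lpr-3 by 0.42 and 0.41, both genes of the precuticular matrix. The cuticlin gene cut-2 rose by 0.74 with 0.2 mM HF at 3 days.

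The list of genes known to respond when the furrows of the cuticle are damaged or osmolarity rises had 20 tested probe sets. With HF at 3 days 9 rose and 2 fell at 0.2 mM and 10 rose and 2 fell at 2.0 mM, beside 26% and 28% of all tested that rose and 32.9% that fell at either dose. The gene osm-11, for a secreted signal, rose by 0.89 and 1.73 in one probe set and 0.71 and 1.1 in the other. With 2.0 mM HF-HQ 11 rose and 3 fell, beside 13.2% and 10.3%, the antimicrobial peptide gene nlp-29 by 0.62, a value named after it was seen, beside 1.16 with 2.0 mM HF at 3 days. The glycerol enzyme gene gpdh-1 fell by 2.13 and the glutathione S-transferase gene gst-4 by 1.73 with 2.0 mM HF-HQ, while gpdh-1 rose by 1.59 with 2.0 mM HF at 3 days. At 11 days 5 rose and 0 fell at 0.2 mM and 3 rose and 4 fell at 2.0 mM.

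Among regulators of collagen genes, 24 probe sets were tested, and 1 rose and 6 fell with 0.2 mM HF at 3 days (26% and 32.9% of all tested), 4 and 5 at 2.0 mM, 0 and 0 with 0.2 mM at 11 days, 4 and 1 at 2.0 mM, 2 and 5 with 0.2 mM HF-HQ and 4 and 1 at 2.0 mM. Probe sets of 1 gene did not always run together. The oxidative stress regulator skn-1 fell by 1.65 in 1 probe set with 0.2 mM HF-HQ, where its other 2 were not called, and daf-16, the factor of insulin signalling, fell by 1.37 in 1, where its other 2 were not called. The gene lin-26, needed for hypodermal fate, fell by 0.64 and 0.32 in its probe sets with 0.2 mM HF at 3 days and by 0.62 and 0.45 at 2.0 mM. Collagens of basement membranes, which are not cuticle collagens, were not called alike: of the type IV collagen gene emb-9, 1 of 2 probe sets rose by 0.22 and 0.21 with 0.2 and 2.0 mM HF at 3 days and by 0.37 with 2.0 mM at 11 days. Of the 15 basement membrane probe sets 6 rose and 1 fell with 0.2 mM HF at 3 days, beside 26% and 32.9% of all tested, and 0 rose and 4 fell with 2.0 mM HF-HQ, beside 13.2% and 10.3%, 1 of the 2 of unc-52 by 0.72. The gene ost-1, of the same list, rose by 1.06 and 0.49 with 0.2 mM HF at 3 days.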

How the data were processed

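The data were 27 one-colour Affymetrix arrays of whole worms, 3 in each of 9 groups. The authors deposited log2 values normalized with GCRMA, per the submitters' processing notes, which give no version here. Whether the experiments were normalized together was not given in the sources used here. After the 77 control sets of the array were removed from 22625 probe sets, 22548 remained, of which 11102 were over log2 5 in at least 3 arrays and were tested. Those that the platform annotation gives to several genes, a collagen among them, were no members.

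With limma 3.58.1 in R 4.3.3, 1 mean per group was fitted over all 27 arrays, with 13 contrasts (6 of treatment, 3 of dose, 4 differences of changes). P-values were adjusted by Benjamini-Hochberg over all 11102 within each contrast, and called at 0.05. The fit was tested on simulated data. Figures were drawn with matplotlib 3.10.9. The members and the 17 gene lists were chosen with earlier results of these data known. Named in each comparison were the phenotype-named collagens and col-19, the up to 6 called members with the largest rise and the up to 6 with the largest fall without overlap of arrays (up to 4 each way for dose contrasts and differences of changes), and the 3 genes of each list with the largest called change. Other named genes are said to be so, or are the next in size beside these.

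Replicate numbers were shared between groups. Of 27 correlations of deviations between same-numbered arrays, 3 were over 0.1 and they ran from -0.30 to 0.43, with 0 of 9 contrasts having all 3 over 0.1, so the numbers were not taken to pair the arrays. The alternatives were other filters, scalings, array weights, the replicate block, only the arrays of a comparison, no _x_at probe sets and each array left out. Precision is limited by the 3 arrays per group.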

Additional observations from a re-analysis of the deposited data

Results flagged for a closer look

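Results are given here where the change differed between ages or preparations by limma's test of the difference itself, or where a signal lay in probe sets outside the members. Neither age nor preparation can be told apart from experiment in these differences. Between 11 and 3 days, the change with 0.2 mM HF differed in 38 of 84 collagen probe sets, beside 42.7% of all tested probe sets. The largest were dpy-17 at 0.72, col-183 at 0.62, dpy-14 at 0.58 and col-49 at 0.51 on the higher side at 11 days (col-183 passed the filter only through the treated 11-day group that makes this difference high), and col-118 at -1.04, col-39 at -1.01, col-130 at -0.98 and col-38 at -0.83 on the lower side. The untreated 11-day arrays of col-130 were 4.73, 3.63 and 3.58, with array 1 apart from the others. Untreated col-39 and col-38 averaged 4.07 and 4.87 at 11 days. Below log2 5 were also dpy-17 and dpy-14 in every 3-day HF array and col-49 in every 11-day array. With 2.0 mM HF, 28 of 84 differed, beside 62% of all tested, led by col-139 at 1.03, col-49 at 0.94, col-81 at 0.74 and col-159 at 0.69, and by col-118 at -0.60, col-95 at -0.54, col-121 at -0.26 and col-132 at -0.21. The calls on col-121 and col-132 were lost in 15 and 13 of 19 alternatives. In every 11-day array col-139, col-49, col-81 and col-132 lay below log2 5, and so did col-121 in every 3-day HF array. Of these, col-49 and col-132 passed the filter only through HF arrays of 3 days, and col-121 only through those of 11 days.

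Between HF-HQ and HF at 3 days, the change with 0.2 mM differed in 26 of 84 collagen probe sets, beside 40.2% of all tested, led by col-129 at 2.22, col-49 at 0.51, col-150 at 0.43 and col-8 at 0.42, and by the dimmer sqt-3 probe set at -1.09, col-95 at -0.73, dpy-5 at -0.71 and col-39 at -0.69. The brighter sqt-3 probe set was not called. In every HF-HQ array col-49 and dpy-5 lay below log2 5, and in every 3-day HF array dpy-17, named next, did. Both col-49 and dpy-5 passed the filter only through HF arrays of 3 days. With 2.0 mM, 50 of 84 differed, beside 48.2% of all tested, led by col-49 at 0.84, dpy-17 at 0.64, col-129 at 0.62 and col-139 at 0.62, and by col-98 at -2.10, col-103 at -1.92, col-95 at -1.66 and col-143 at -1.52.

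Probe sets annotated to several genes, a col- gene among them, were no members, and 16 of them were tested. With HF at 3 days 13 were called at 0.2 mM, all higher, beside 26% of all tested that rose and 32.9% that fell. At 2.0 mM 8 were called, 6 higher and 2 lower, beside 28% and 32.9%, together a smaller share than of all tested. At 11 days 0 were called at 0.2 mM, beside 3.22% and 0.784%, and 13 at 2.0 mM, all higher, beside 13.4% and 14.8%. With HF-HQ 7 were called at 0.2 mM, all higher, beside 15.9% and 14.3%. At 2.0 mM HF-HQ 14 were called, all lower, beside 13.2% that rose and 10.3% that fell.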

How the results depend on the processing

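Counts of called collagen probe sets stayed within 1.5 times the reported count in 229 recomputations and left it in 16. Without _x_at sets, where fewer members are counted by construction, the counts were 16 with 2.0 mM HF at 11 days and 24 with 2.0 mM HF-HQ, 23 and 34 for the dose contrasts of HF at 11 days and HF-HQ, 17 for the age difference at 2.0 mM and 29 for the preparation difference at 2.0 mM. With a filter of log2 7 the age and preparation differences at 0.2 mM gave 21 and 16, and with members over log2 5 in each experiment the age differences gave 12 at 0.2 mM and 17 at 2.0 mM. The settings without _x_at sets and with members over log2 5 in each experiment were chosen after seeing the data. With 0.2 mM HF at 11 days 16 were called with array weights and 5 with only the arrays of the comparison, where 0.2 mM HF-HQ also gave 5. The cause was not tested for these last 3. Leaving out each array in turn gave 43 to 48, 25 to 29, 5 to 8, 27 to 35, 13 to 18 and 38 to 45 for HF at 3 days (0.2, 2.0 mM), HF at 11 days (0.2, 2.0 mM) and HF-HQ (0.2, 2.0 mM), 26 to 32, 31 to 39 and 55 to 61 for the dose contrasts in that order, 30 to 36 and 23 to 30 for the age differences and 19 to 26 and 45 to 52 for the preparation differences. The replicate block gave 47, 28, 9, 33, 15 and 42 for the treatments, 31, 37 and 60 for the doses, and 35, 27, 23 and 49 for the differences, and moved no count by over 1.5 times. Of 3521 recomputed values of named members 3300 kept their call, 188 lost it, 33 gained one and 0 reversed. Probe sets near the background of the array, such as those of dpy-5 at 11 days, limit what a small change can show.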
